A study of Rattus norvegicus with 2 samples.

Results

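The enzymes of glycolysis and of the citric acid cycle were examined as a group of 37 genes, named as a list that also holds the lactate dehydrogenases, the pyruvate carrier, the pyruvate dehydrogenase complex and the enzymes of the malate-aspartate shuttle. Of these 37 genes, 35 have a line under their exact symbol among the 25399 lines of the sympathetic neuron cluster. The line spelled Idh3B was taken as Idh3b, which differs from it only in letter case and gives 36 genes with values. Ogdh has no line under this symbol and is not analysed here. The cells came from dissociated stellate ganglia of male rats of 5 to 6 weeks of age, with a library of normotensive Wistar rats and another of prehypertensive spontaneously hypertensive rats (SHRs), each sequenced with 10x Genomics droplet chemistry that counts the ends of transcripts. Neither group was treated. The Wistar is an outbred stock and the SHR an inbred strain, and how many animals entered each library is not given in the sources used here. With 1 library per strain, strain and library cannot be told apart, no value has an error, and no difference below has a test or a replicate check.

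Neurons depend on glucose, which glycolysis splits into pyruvate in the cytosol. Pyruvate is either reduced to lactate or carried into mitochondria, where pyruvate dehydrogenase turns it into acetyl-CoA for the citric acid cycle, whose electrons feed the respiratory chain. Hexokinase and phosphofructokinase catalyse early steps of glycolysis. The malate-aspartate shuttle moves the reducing equivalents made by glycolysis into mitochondria.

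Levels are means over the neurons of a library, in counts per 10000 counts of a cell, and the strain difference is the ratio of these means, SHR over Wistar, or its log2. Counts of transcript ends were not divided by gene length. Both libraries sum to 10000, and the number of neurons and of counts per neuron is unknown. The libraries also differed outside the enzymes. The summed level of 15 sympathetic neuron markers was 248.3 in Wistar and 283.3 in SHR, but 8 of the 15 were lower in SHR, and their median log2 ratio was -0.01. Of the 15, 3 were lower by 1.5-fold: Ddc, at 7.05 and 3.44, Dbh, at 10.2 and 6.36, and Maoa, at 1.78 and 1.11, which act in catecholamine synthesis and breakdown. Hand2, a transcription factor of sympathetic neurons, was higher by 1.5-fold, at 0.250 and 0.452. Of all 7621 genes with an average of at least 0.1 per 10000, 26.5% were lower in SHR by 1.5-fold and 5.22% higher. By any size, 65.6% were lower. The summed level of 13 satellite glia markers was 9.67 in Wistar and 3.85 in SHR, of which Apoe alone made 6.24 and 2.23. Of the 13, 11 were lower in SHR, but 6 of the 13 had an average under 0.1 per 10000. Kcnj10 was listed at 0.0006 in Wistar and at 0 in SHR. The summed level of 6 fibroblast markers was 1.84 in Wistar and 0.353 in SHR, that of 7 immune markers 1.31 and 0.426, that of 5 endothelial markers with a line 0.109 and 0.0358, that of 5 smooth muscle markers 0.110 and 0.0705, and that of the 4 erythrocyte markers with a line 0.0669 and 0.0499. The 13 mitochondrially encoded genes took 1685 per 10000 in Wistar neurons and 1800 in SHR neurons. The part of these differences in the results below was not tested.

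Taken as a sum, the 36 enzyme genes made up almost the same share of the counted transcripts in both strains. Their summed level was 96.2 per 10000 in the Wistar neurons and 98.9 in the SHR neurons, or 0.962% and 0.989% of all counts. The 5 highest members made 48.4% of this sum in Wistar and 49.4% in SHR, and 7 members ranked among the 250 most abundant genes in each library. Of the 36, 34 had an average over both libraries of at least 0.1 per 10000, the minimum used for counts of genes and medians. Hk2, a hexokinase, was under it, and Eno2, the neuronal enolase, was listed at 0 in both libraries. Of the 34, 16 had SHR means within 10% of the Wistar mean. Of all 7621 genes past the minimum, 1532 did. The 2 sets differ in level, since 5945 of the 7621 genes lay between 0.1 and 1 per 10000, against 11 of the 34. No such share was taken among genes of like level.

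**Figure D1:**
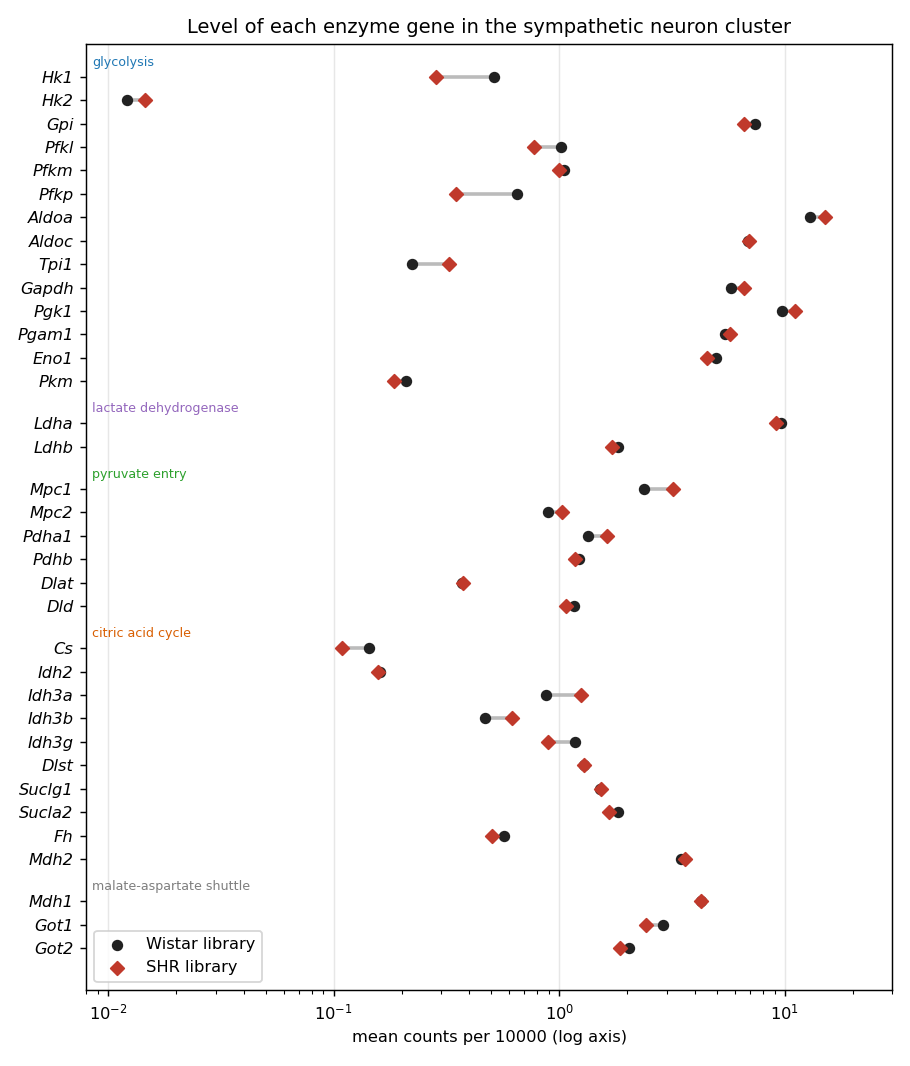
Mean counts per 10000 (log axis) of the 35 enzyme genes with a mean above 0, by step of the pathway, for Wistar (black circles) and SHR (red diamonds), with 1 library per strain and no error bars. Most pairs of points lie close together, and the widest gaps are those of Hk1 and Pfkp, with the SHR point to the left.

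Past a fixed size of 1.5-fold, 2 of the 34 genes, Hk1 and Pfkp, were lower in SHR and 0 were higher. Among all 7621 genes past the minimum, 26.5% were lower in SHR by this size and 5.22% were higher. The median log2 ratio of the 34 genes was -0.04, with a range from -0.89 to 0.54, and that of the 7621 genes was -0.21. In direction alone 20 of the 34 were lower in SHR and 14 higher, where 65.6% of all genes past the minimum were lower. With the median ratio of all genes set to 0, which adds 0.21 to every log2 ratio, 6 of the 34 were lower and 28 higher. Under all scalings tried, 6 genes were lower, which were Hk1, Pfkp, Pfkl, Cs, Idh3g and Got1, and 14 were higher. The scalings shifted log2 ratios by -0.001 to 0.21, so none of these 14 could turn lower. The direction of the other 14 depended on the scaling.

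The strain ratio of a gene went with its level across the whole transcriptome, so the enzymes were also set beside genes of like level, a split chosen after the data were seen. Among the 273 genes with an average of 5 per 10000 or more, the median log2 ratio was 0.27, with 4.4% lower and 17.6% higher in SHR by 1.5-fold. The 7 enzyme genes of this range, Aldoa, Pgk1, Ldha, Gpi, Aldoc, Gapdh and Pgam1, had a median of 0.07 and lay between -0.16 and 0.22. Between 1 and 5 per 10000, the median was 0.02 over 1403 genes and -0.06 over 16 enzyme genes, which lay between -0.39 and 0.51, with 13% of all genes lower and 8.84% higher by 1.5-fold and 0 of the 16 past this size in either direction. Between 0.1 and 1 per 10000, the median was -0.29 over 5945 genes and -0.17 over 11 enzyme genes. Both genes past 1.5-fold were in this lowest range, where 30.7% of all genes were lower by that size and 3.8% higher.

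**Figure D2:**
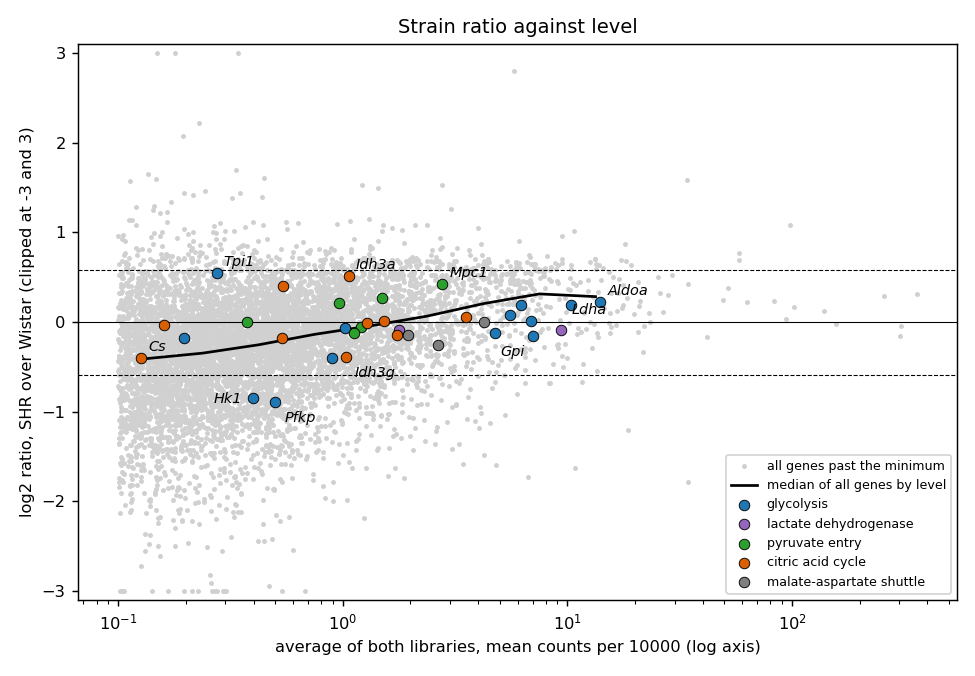
Log2 ratio of SHR over Wistar against the average of both libraries in mean counts per 10000 (log axis) for the 7621 genes past the minimum (grey) and the 34 enzyme genes (coloured by step), with 1.5-fold as dashed lines and ratios beyond 3 drawn at the edge. The black line is the median of all genes by level, which climbs from below 0 at low levels to above 0 at high levels, and Hk1 and Pfkp are the only coloured points outside the dashed lines.

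The 2 lowest ratios were those of Hk1 and Pfkp, a hexokinase and a phosphofructokinase gene. Both lie between 0.1 and 1 per 10000, where 30.7% of all genes were lower in SHR by 1.5-fold. Hk1, the main hexokinase of neurons, stood at 0.511 per 10000 in Wistar neurons and 0.284 in SHR neurons, a 1.80-fold lower level with a log2 ratio of -0.85. Its rank among all genes went from 3373 in Wistar to 4413 in SHR. Hk2, the insulin-responsive hexokinase of muscle and fat, was listed at 0.0122 per 10000 in Wistar neurons and 0.0146 in SHR neurons. Of the phosphofructokinases, which make fructose bisphosphate, Pfkp was listed at 0.650 in Wistar and 0.350 in SHR, 1.86-fold lower with a log2 ratio of -0.89. Pfkl was at 1.02 and 0.774, 1.32-fold lower, while Pfkm was at 1.05 and 0.999, a log2 ratio of -0.07. The summed level of the 3 phosphofructokinase genes was 2.72 in Wistar and 2.12 in SHR, and the share of Pfkm in it was 38.5% and 47.0%. Pfkm thus had the largest share in both libraries, and Pfkp the smallest, at 23.9% and 16.5%.

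Aldoa, Aldoc, Gapdh, Pgk1 and Pgam1, 5 enzymes of the middle of glycolysis, had SHR levels of 1.01 to 1.17 times the Wistar level. The scalings tried could not turn these 5 lower. All 5 lie at 5 per 10000 or more, where the median log2 ratio of all genes was 0.27, above that of each of them. Gpi, the isomerase between hexokinase and phosphofructokinase, was at 7.38 per 10000 in Wistar neurons and 6.62 in SHR neurons. Aldoa, an aldolase, was the most abundant member in both libraries, at 12.9 in Wistar and 15.1 in SHR, a log2 ratio of 0.22 and rank 62 and 63 among all genes. Aldoc, the other aldolase, known in brain from astrocytes and Purkinje cells, was at 6.85 and 6.91, a log2 ratio of 0.01, in libraries whose satellite glia markers differed as given above. Aldoc made 34.7% of the aldolase sum in Wistar and 31.5% in SHR. Gapdh, which makes the first NADH of the pathway, was at 5.79 and 6.59, and Pgk1, which makes the first ATP, at 9.72 and 11.1, with log2 ratios of 0.19 for each. Pgam1, the mutase after it, was at 5.42 and 5.71. The enolase Eno1 was at 4.93 in Wistar and 4.54 in SHR, a log2 ratio of -0.12, which became positive with the median of all genes set to 0.

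Some glycolytic genes were listed at low levels or at 0, and levels of this family need care. Tpi1, triose phosphate isomerase, was listed at 0.223 per 10000 in Wistar neurons and 0.325 in SHR neurons, the highest ratio among the 34 genes at 1.46-fold, just short of the 1.5-fold limit. Pkm, pyruvate kinase, was listed at 0.209 and 0.185. Tpi1 and Pkm thus ranked 5848 and 6049 in Wistar, whereas Aldoa, Gapdh and Pgk1 of the same linear pathway ranked among the first 250. Eno2 was listed at 0 in both strains, as was Hprt1, a purine salvage gene that cells in general use and that was named here after its value was seen. RefSeq names many processed copies of these genes in the rat genome: 79 pseudogenes of Gapdh, 30 of Eno1, 30 of Ldha, 19 of Pkm, 13 of Pgam1, 9 of Aldoa, 8 of Pgk1, 6 of Got2 and 3 of Tpi1, against 0 named ones for Hk1, Pfkp and Eno2. Reads that match a gene and a near-identical copy can be lost or split in counting, so the levels of these genes are uncertain, and the part of the copies in any strain ratio was not tested.

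The lactate dehydrogenases, which interconvert pyruvate and lactate, had nearly the same ratio in both strains. Ldha, the subunit that favours lactate production, was at 9.66 per 10000 in Wistar neurons and 9.10 in SHR neurons, and Ldhb, the heart-type subunit, at 1.83 and 1.72. Their log2 ratios were both -0.09, which became 0.13 for Ldha and 0.12 for Ldhb with the median of all genes set to 0. Ldha over Ldhb was 5.29 in each library, so Ldha took 84.1% of the lactate dehydrogenase sum in Wistar and in SHR. The 2 subunits differ in level by more than 5-fold in each strain, and their proportion was the closest match between the strains among the isozyme sets examined, leaving aside enolase, where Eno2 is at 0.

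**Figure D3:**
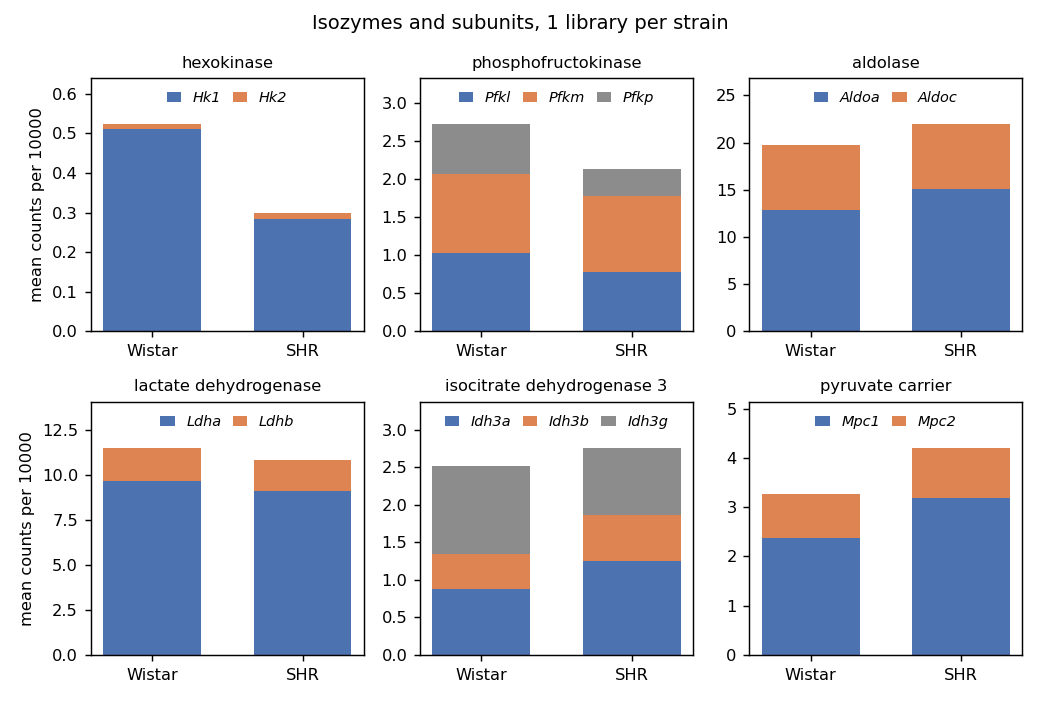
Stacked bars of mean counts per 10000, from 0, for isozymes or subunits of 6 steps in the Wistar and the SHR library, with 1 library per strain and no error bars. The lactate dehydrogenase bars keep the same proportions in both strains, and the hexokinase and phosphofructokinase bars are shorter in SHR. In isocitrate dehydrogenase 3 the share of Idh3a is larger in SHR and that of Idh3g smaller.

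The genes that bring pyruvate into the mitochondrion had the highest median ratio of the 5 groups, at a log2 ratio of 0.11 over 6 genes, and 0 of the 6 passed 1.5-fold. Mpc1 and Mpc2 together form the mitochondrial pyruvate carrier. Mpc1 was at 2.37 per 10000 in Wistar neurons and 3.18 in SHR neurons, 1.34-fold higher, and Mpc2 at 0.890 and 1.03, 1.16-fold higher. In the pyruvate dehydrogenase complex, Pdha1, the catalytic alpha subunit that its kinases phosphorylate, was at 1.35 in Wistar and 1.63 in SHR, 1.21-fold higher. The beta subunit gene Pdhb was at 1.23 and 1.18, the acetyltransferase gene Dlat at 0.372 and 0.373, and the dehydrogenase gene Dld, shared with the oxoglutarate complex, at 1.16 and 1.07. The summed level of the 6 genes was 7.37 in Wistar and 8.46 in SHR, a ratio of 1.15, and 1.06 without Mpc1, its most abundant member.

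Across the citric acid cycle the median log2 ratio was -0.02 over 10 genes, with 6 lower and 4 higher and 0 past 1.5-fold. The summed level was 11.5 per 10000 in Wistar neurons and 11.6 in SHR neurons. The subunits of isocitrate dehydrogenase 3, the NAD-dependent enzyme that oxidises isocitrate in the cycle, lay furthest from each other. Idh3a, the catalytic subunit, was at 0.876 in Wistar and 1.25008 in SHR, 1.43-fold higher, and Idh3b at 0.467 and 0.618, 1.32-fold higher. Idh3g, a regulatory subunit, was at 1.17 and 0.893, 1.31-fold lower. Idh3a over Idh3g was therefore 0.749 in Wistar and 1.40 in SHR, a ratio that no scaling of a library can move.

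The remaining genes of the cycle were listed at closely matched levels, apart from Cs. Cs, the citrate synthase that opens the cycle, was at 0.144 per 10000 in Wistar neurons and 0.109 in SHR neurons, 1.32-fold lower at a level near the minimum. Idh2, the NADP-dependent mitochondrial isocitrate dehydrogenase, was at 0.161 and 0.158. Dlst, the succinyltransferase of the oxoglutarate complex, was at 1.29 and 1.28, and Suclg1, the shared subunit of succinyl-CoA ligase, at 1.51 and 1.53. Its ATP-specific partner Sucla2 was at 1.83 and 1.65. Fh, fumarase, was at 0.570 and 0.503, and Mdh2, the mitochondrial malate dehydrogenase, at 3.47 and 3.59. The log2 ratios of these 6 genes other than Cs lay between -0.18 for Fh and 0.05 for Mdh2.

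In the malate-aspartate shuttle Mdh1, the cytosolic malate dehydrogenase, was at 4.27 per 10000 in Wistar neurons and 4.26 in SHR neurons, the smallest difference among the 34 genes. The aspartate aminotransferases were at 2.87 and 2.41 for the cytosolic Got1, 1.19-fold lower, and at 2.04 and 1.85 for the mitochondrial Got2. The log2 ratio of Got1 was -0.25, and it stayed below 0 under the scalings tried, unlike that of Got2, which was -0.14.

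Sequences of the promoters were looked at for the 2 genes with the lowest ratios, Hk1 and Pfkp, and for Tpi1 and Mpc1, which had high ratios. Idh3a and Pgk1 have no entry in the promoter table used. The RefSeq windows (GRCr8 assembly, 250 bases before to 50 after a start) are shown 5′ to 3′ on the strand of the gene, with capitals for GGGCGG, the GC box bound by SP1-type factors, and ACGTG, the core of hypoxia response elements, on either strand. ACGTG is also part of the E-box CACGTG, and GGGCGG sites can overlap one another.
Hk1 (chr20:30842023-30842322, minus strand): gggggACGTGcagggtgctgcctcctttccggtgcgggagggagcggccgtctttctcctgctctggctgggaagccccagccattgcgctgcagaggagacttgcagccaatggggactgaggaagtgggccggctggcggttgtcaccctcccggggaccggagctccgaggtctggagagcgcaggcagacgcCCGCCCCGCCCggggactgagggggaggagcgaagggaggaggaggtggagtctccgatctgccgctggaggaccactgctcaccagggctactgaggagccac
Pfkp (chr17:68639563-68639862, plus strand): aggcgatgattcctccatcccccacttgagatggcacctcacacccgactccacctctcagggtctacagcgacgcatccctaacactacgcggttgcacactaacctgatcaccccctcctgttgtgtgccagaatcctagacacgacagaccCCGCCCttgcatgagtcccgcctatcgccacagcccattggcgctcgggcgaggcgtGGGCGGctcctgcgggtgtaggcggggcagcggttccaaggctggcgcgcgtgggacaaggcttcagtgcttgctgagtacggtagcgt
Tpi1 (chr4:159305039-159305338, minus strand): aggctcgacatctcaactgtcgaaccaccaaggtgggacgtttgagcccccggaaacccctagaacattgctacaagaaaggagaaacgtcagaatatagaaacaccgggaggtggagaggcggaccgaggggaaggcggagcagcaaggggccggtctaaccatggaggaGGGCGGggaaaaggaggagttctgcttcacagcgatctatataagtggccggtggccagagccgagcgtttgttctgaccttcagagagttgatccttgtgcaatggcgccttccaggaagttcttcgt
Mpc1 (chr1:54996909-54997208, minus strand): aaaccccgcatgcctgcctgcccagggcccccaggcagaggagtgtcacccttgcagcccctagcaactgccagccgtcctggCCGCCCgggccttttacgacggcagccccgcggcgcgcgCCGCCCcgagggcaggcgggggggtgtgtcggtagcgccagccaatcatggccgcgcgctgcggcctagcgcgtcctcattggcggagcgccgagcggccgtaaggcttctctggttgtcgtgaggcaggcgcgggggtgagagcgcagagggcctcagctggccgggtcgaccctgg
The Hk1 window holds 1 ACGTG and 2 GGGCGG matches, those of Pfkp and Mpc1 hold 2 GGGCGG matches each, and that of Tpi1 holds 1. A second Hk1 window in the table holds neither. Over all 39 windows of 35 members, 38.5% hold ACGTG and 64.1% hold GGGCGG, against 19.3% and 33.1% of all 33469 windows and 26.4% and 66.0% of the 6391 windows of genes past the minimum. A core of the NRF1 site, TGCGCA, is in 17.9% of the member windows, 7.24% of all windows and 15.3% of those of genes past the minimum. For ACGTG the share was 50% of the 20 windows of glycolysis and lactate dehydrogenase genes and 26.3% of the 19 windows of the other members. These are matches of letters in windows that share genes, given as a description, and they show neither binding nor a source of a strain difference.

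Other genes of the same metabolism came from lists of 84 genes, of which 80 have a line and 46 passed the minimum. Of these 46, 8 were lower in SHR by 1.5-fold and 0 were higher, beside the 26.5% and 5.22% of all genes. Among enzymes of the same steps, Aco1, the cytosolic aconitase, was at 0.261 per 10000 in Wistar neurons and 0.166 in SHR neurons, 1.57-fold lower. The 4 subunit genes of succinate dehydrogenase, which belongs to both the cycle and the respiratory chain, had a median log2 ratio of 0.18. Sdhc had the highest ratio of them, at 1.19 in Wistar and 1.43 in SHR. Sdhb was the most abundant, at 1.88 and 2.05, and Sdha was the only 1 lower in SHR, at 0.841 and 0.775.

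The list of glucose and monocarboxylate transporters had 6 genes past the minimum, all with lower levels in SHR, and a median log2 ratio of -0.39. Of all genes past the minimum, 65.6% were lower. Apart from Bsg, the 6 lay between 0.1 and 1 per 10000, where the median of all genes was -0.29 and 30.7% were lower by 1.5-fold. With the median of all genes set to 0, the log2 ratio of Bsg, the most abundant, becomes positive. Bsg, which escorts monocarboxylate transporters to the membrane, was at 11.5 per 10000 in Wistar neurons and 10.5 in SHR neurons. Slc2a8 and Slc2a13, sugar and inositol transporters of internal membranes, were 1.58-fold and 1.52-fold lower. Slc2a3, the neuronal glucose transporter, was listed at 0 in both libraries. Of the regulators, Pfkfb2 and Pfkfb3, which make a separate fructose bisphosphate that activates phosphofructokinase, were lower. Pfkfb2 was at 0.185 in Wistar and 0.0433 in SHR, 4.27-fold lower at a level near the minimum, and Pfkfb3 at 0.415 and 0.266, 1.56-fold lower. Pfkfb2 passed the minimum only through its Wistar level, so it could only be counted as lower. Among carriers and anaplerotic enzymes, Slc25a10, Me2 and Pck2 were lower by 1.56-fold to 1.60-fold, and Acly, which splits citrate in the cytosol, was the most abundant at 7.49 and 6.07. In the pentose phosphate pathway 0 of 6 genes and in glycogen metabolism 0 of 7 passed 1.5-fold, with median log2 ratios of -0.05 and -0.07. By the average of both libraries their most abundant genes were Tkt, at 3.06 and 2.99, and Pgm1, at 0.799 and 0.759.

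Targets of the hypoxia-inducible factor, a regulator of many glycolytic genes, were listed for comparison, together with Hif1a, a gene of the factor itself. Of these 15 genes, 12, with Hif1a among them, passed the minimum, and their median log2 ratio was -0.28. Of the 12, 3 genes, Ndufa4l2, P4ha1 and P4ha2, were lower by 1.5-fold and 1, Higd1a, was higher. Of all genes, 26.5% were lower by that size and 5.22% higher, so the share of lower genes in this list is near that of all genes. Ndufa4l2, known also as a pericyte gene, was at 0.497 per 10000 in Wistar neurons and 0.0234 in SHR neurons, and Higd1a at 1.53 and 2.54. Ndufa4l2 passed the minimum only through its Wistar level, so it could only be counted as lower. The target of highest level by the average of both libraries, Bnip3, was at 2.88 in Wistar and 3.11 in SHR, and Vegfa, the highest in Wistar, at 2.93 and 1.96. The 8 immediate early genes past the minimum, which report on acute stimulation or handling of cells, had a median log2 ratio of -0.09, and 0 of them passed 1.5-fold.

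The nuclear genes of the respiratory chain, which take over the electrons from the cycle, are given for comparison. Of 72 subunit genes, 67 passed the minimum, with a median log2 ratio of 0.44. Of these 67, 62 were higher in SHR and 17 were higher by 1.5-fold. Their summed level was 229.7 per 10000 in Wistar neurons and 318.2 in SHR neurons. Ribosomal protein genes were also high, with 66 of 67 higher in SHR, a median log2 ratio of 0.55 and summed levels of 228.6 and 331.7. Of all genes past the minimum, 5.22% were higher by 1.5-fold and 65.6% were lower by any size. Among the 273 genes at 5 per 10000 or more, the median was 0.27 and 17.6% were higher by 1.5-fold. These 2 lists were not split by level. The difference between these lists and the enzymes was not tested, since each strain has 1 library. Rescaling each library without mitochondrially encoded genes and ribosomal protein genes moved every log2 ratio by 0.04.

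**Figure D4:**
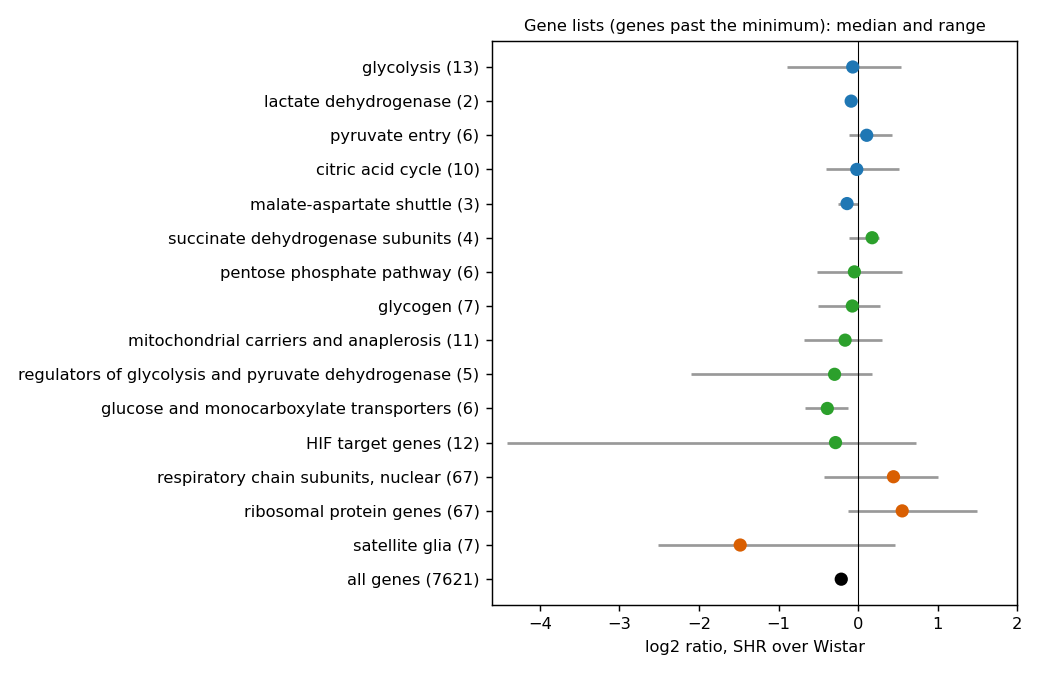
Median log2 ratio of SHR over Wistar (points) and lowest to highest gene (lines) for each gene list, with the number of genes past the minimum in parentheses; blue marks the enzyme groups described here, green other metabolic lists and HIF targets, orange further lists for comparison and black all genes (median only). The enzyme groups lie close to 0, the respiratory chain and ribosomal protein genes lie above it, and satellite glia markers, with a median of -1.48, lie far below.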

How the data were processed

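Per the labels, the submitters' processing notes name Cell Ranger 3.0.2, Seurat 3 and the rat build Rnor_6.0. The authors clustered the cells, selected sympathetic neurons and deposited a natural log for each gene and library, taken of the mean over the cluster's cells, in counts per 10000, with 1 added. Filters on cells and the treatment of doublets are not given in the sources used here. The deposited table of the authors' own comparison, which holds fold changes, p-values and 2 columns of shares of cells whose names match no sample, was not used. Values were converted back with the exponential, and 4 lines that share names were dropped, leaving 25395 genes. Ratios, medians and counts past 1.5-fold were computed with Python 3.11.15, NumPy 2.4.6 and pandas 2.3.3, and figures were drawn with Matplotlib 3.10.9. The counting script was checked on made-up values with known answers. All members were named, and of other genes only those past 1.5-fold or most abundant in their list, with a few named after their values were seen. A gene under this rule is not reported here. The members and lists were chosen with earlier results of these data known. Pseudogene counts are symbols ending in -ps and a number in RefSeq (GRCr8). Depth is unknown, so no counting error could be given.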

Additional observations from a re-analysis of the deposited data

How the results depend on the processing

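No paired analysis was possible because pairing needs more than 1 library of a strain, and for the same reason leaving out a replicate was not run. The split by level, the exact spelling of Idh3b and the exclusion of genes with 6 or more named pseudogenes were chosen after the data were seen. A value was taken as unmoved when its log2 ratio shifted by less than 0.1, and a count when it stayed within 1.5 times.

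The count of 2 genes lower in SHR became 0 with a pseudocount of 1, the deposited scale, which by construction compresses low levels, 0 with a minimum of 1 per 10000, which removes Hk1 and Pfkp, and 0 at 2-fold, and it was 5 at a smaller limit, a ratio of 5 to 4. The count of 0 higher genes became 4 at that limit, where 42.1% of all genes were lower and 15.5% higher, and 4 with the median of all genes set to 0, where 13.2% of all genes were higher and 17.3% lower, beside 2 lower members. The share of all genes that were lower was 1.26% with the pseudocount of 1, 11.6% with the minimum of 1 per 10000 and 11.3% at 2-fold. This centring moved the median log2 ratios to 0.17 for all members, 0.14 for glycolysis, 0.12 for the lactate dehydrogenases, 0.32 for pyruvate entry, 0.20 for the citric acid cycle and 0.073 for the malate-aspartate shuttle. The median of glycolysis became 0.043 with a minimum of 1 per 10000, since fewer genes remain. The ratio of the pyruvate entry sum became 1.06 without Mpc1. Without mitochondrially encoded and ribosomal protein genes in the total, 3 of the 34 members turned from slightly lower to slightly higher. Without markers of other cell types 0 did, but this moved each log2 ratio by only -0.001. It cannot show what other cells added to the level of a member. Hk1 and Pfkp were lower under each pseudocount and scaling tried. A pseudocount cannot change the direction of a ratio, however, and the scalings moved log2 ratios by 0.21 at most. Depth limits all low levels, and Cs, Idh2, Pkm and Tpi1 are the members of lowest level past the minimum.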
